A study of Homo sapiens with 4 samples.

Results

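MSX1 and MSX2 are the human members of the muscle segment homeobox family. They were chosen by their measured intensities on these same arrays, where MSX1 was highest after joint treatment with a BMP ligand and a WNT pathway activator. Every probe annotated to either gene was taken, which gave 2 genes with 1 probe each, of 20046 named genes and 47321 probes on the array. Because those intensities chose the pair, their levels and differences are descriptions and no test was run on them.

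The cells were HuES6, an established human embryonic stem cell line, stimulated for 4 h, and their RNA was read with Illumina HumanHT-12 V4 bead arrays, whose probes are short oligonucleotides. One group received 20 ng/ml BMP4 and 5 µM CHIR99021 together, another BMP4 alone, another CHIR99021 alone at the same doses, and the last was left untreated. The medium of all 4 groups held Activin A (5 ng/ml) besides FGF2 (20 ng/ml), so each response was measured in cells that already received those factors. The cells had been seeded as single cells on Matrigel, moved from feeder-conditioned to a more defined medium a day before stimulation, and used below confluency. Each group holds 1 array, so no difference has a replicate check, no error can be given and no p-value was computed. BMP4 is a ligand of the BMP receptors, and CHIR99021 inhibits the kinase GSK3 and thereby activates canonical WNT signaling.

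MSX proteins are homeodomain transcription factors that act mainly as repressors. In vertebrate embryos they are classical early targets of BMP signaling, in which ligand-bound receptors phosphorylate SMAD1, SMAD5 and SMAD9, which enter the nucleus with SMAD4. In canonical WNT signaling, inhibition of GSK3 spares beta-catenin from degradation, and beta-catenin then acts on genes through TCF and LEF factors. MSX1 and MSX2 are known from the neural plate border, the neural crest, limb buds, teeth and the posterior primitive streak, all places where BMP and WNT signals meet.

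The cells carried the marker profile of their label on every array. All 9 measured markers of undifferentiated pluripotent cells, POU5F1, NANOG and SOX2 among them, were detected on each of the 4 arrays, and none passed the size rule defined below in any comparison. Their summed linear intensity was 10980 with both treatments, 10935 with BMP4, 11119 with CHIR99021 and 11190 in untreated cells. An array detected 15980 to 16762 probes, and pairwise Pearson correlations between arrays ran from 0.984 to 0.990 across 18916 probes.

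MSX1 lies on chromosome 4 and MSX2 on chromosome 5. The 250 bases upstream of each annotated start are shown because both genes had their highest level under joint treatment, and these windows are where their proximal promoter sequence can be compared. They are the RefSeq sequence of GRCh38.p14 on the plus strand, at chr4:4859415-4859664 for MSX1 and chr5:174724332-174724581 for MSX2, written 5′ to 3′ with CCAAT boxes, on either strand, in capitals.
MSX1: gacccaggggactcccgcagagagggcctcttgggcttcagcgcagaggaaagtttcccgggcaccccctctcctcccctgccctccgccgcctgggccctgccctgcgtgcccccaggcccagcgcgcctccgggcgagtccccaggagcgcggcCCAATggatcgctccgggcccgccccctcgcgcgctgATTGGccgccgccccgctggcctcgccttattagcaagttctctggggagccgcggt
MSX2: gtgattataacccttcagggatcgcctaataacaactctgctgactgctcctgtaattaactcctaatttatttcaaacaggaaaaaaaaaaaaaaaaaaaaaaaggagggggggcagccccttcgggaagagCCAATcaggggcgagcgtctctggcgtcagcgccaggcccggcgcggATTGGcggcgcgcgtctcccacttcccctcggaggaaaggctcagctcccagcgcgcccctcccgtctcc
Both windows held 2 CCAAT boxes facing each other. Counted from its leftmost base, the MSX1 box on the plus strand lay 94 bases before the start and that on the minus strand 57 bases before it, and in MSX2 the positions were 117 and 70 bases before the start. Of 35116 promoters of the same 300 bases (250 before and 50 after the start), 34.6% held at least 1 CCAAT box and 10.8% held 2 or more. The CCAAT box was looked for after the sequences had been read.

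The motifs of the pathways' transcription factors were searched in the full 300 bases on both strands. For TCF and LEF factors the motif CTTTGAT is held by 2.62% of all promoters, the form CTTTGTT by 5.20% and the form CTTTGAA by 4.43%. For SMADs the motif GTCTG is held by 45.3% of promoters, the palindrome GTCTAGAC by 0.202% and the GC-rich form GGCGCC by 19.2%. The MSX-type homeodomain motif TAATTG is held by 7.38%. The palindrome does not contain the shorter SMAD motif, and the 3 TCF and LEF motifs share their first 5 letters. None of the 7 motifs matched in MSX1 or in MSX2, which says only that these letters are not in these windows. The MSX1 window had a GC content of 74.7%, higher than 89.7% of promoters, and 31 CG dinucleotides, against a median of 58.7% and 14 over all promoters. The MSX2 window had 57.0% GC and 24 CG dinucleotides.

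MSX1 was detected on all 4 arrays, with a detection p-value of 0 on each. Detection compares a probe with the array's negative controls, and a probe counted as detected below a p of 0.01. Its raw intensity was 1609 with both treatments, 161 with BMP4, 444 with CHIR99021 and 131 in untreated cells. The combined array thus stood apart from the other 3, the CHIR99021 array came next, and BMP4 alone was nearest to untreated cells. The lowest raw intensity among detected probes was between 97.5 and 103 on the 4 arrays, so the BMP4 and untreated values of MSX1 were close to the limit of detection and the combined value far above it. After background correction and quantile normalization the log2 intensity of MSX1 was 10.67 with both treatments, 6.59 with BMP4, 8.45 with CHIR99021 and 5.81 in untreated cells. The single MSX1 probe is 50 bases long and, as listed, holds a stop codon in all 3 reading frames, so it cannot lie wholly within coding sequence.

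MSX2 was detected on the combined array only. Its raw intensity was 104 with both treatments, 86.5 with BMP4, 86.1 with CHIR99021 and 85.7 in untreated cells, with detection p-values of 0.0013, 0.387, 0.404 and 0.566 in the same order. The combined value was just above the lowest detected intensity of that array, 97.5, and the other 3 lay within the range of undetected probes. Of the 11282 genes detected on at least 1 array, 189 or 1.68% were detected on the combined array alone, against 248 or 2.2% on the BMP4 array, 156 or 1.38% on the CHIR99021 array and 305 or 2.7% on the untreated array, so a gene seen on 1 array only was not rare on any of them. The normalized log2 intensity of MSX2 was 5.27 with both treatments, 4.37 with BMP4, 4.35 with CHIR99021 and 4.30 in untreated cells.

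**Figure D1:**
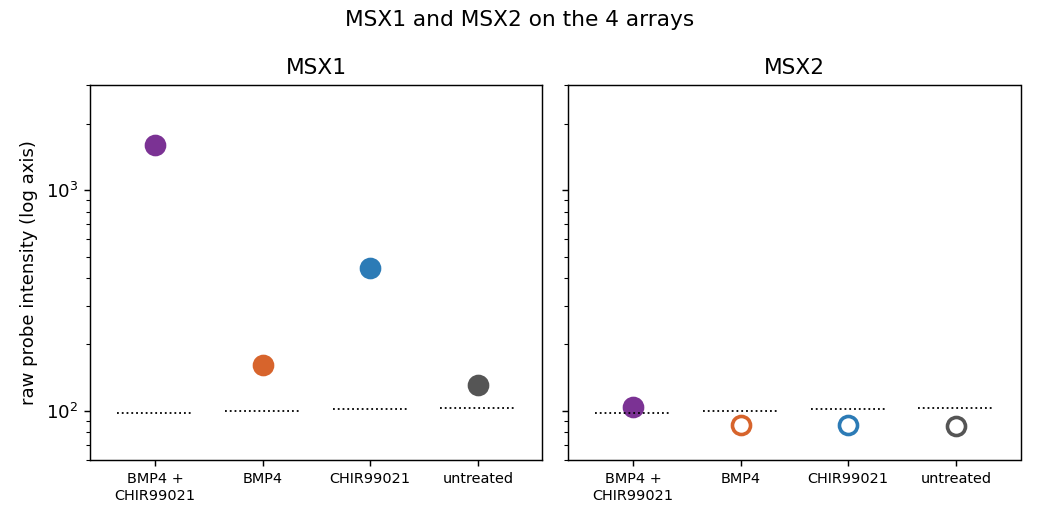
Raw probe intensity (log axis) of MSX1 and MSX2 on the array of each group, 1 point per array, filled where the probe was detected and open where it was not. Dotted lines mark the lowest raw intensity among detected probes of each array. MSX1 stood at 1609 with both treatments and between 131 and 444 on the other arrays, and MSX2 stood above its line on the combined array alone.

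Joint treatment gave MSX1 its largest difference. MSX1 was 29.1-fold higher with both treatments than in untreated cells, a log2 difference of 4.86 that ranked 3 of 10825 genes tested. A gene passed the size rule when its log2 difference was at least 1 in size, a 2-fold change, and either array of the comparison detected its probe. In this comparison 68 genes or 0.628% were higher by that rule and 71 or 0.656% were lower. With median scaling in place of quantile normalization the split was 53 higher and 119 lower. It went the other way with an offset of 50, 39 and 23, and without background correction, 26 and 14. MSX2 did not pass, with a log2 difference of 0.98, the 76th highest. Because MSX2 was not detected in untreated cells its fold is a bound, at least 1.27-fold higher with both treatments, taken against the lowest normalized intensity among detected probes of the untreated array.

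BMP4 alone left MSX1 within the size rule. MSX1 was 1.72-fold higher with BMP4 than in untreated cells, a log2 difference of 0.79 and the 75th highest of 10864 genes. Here 22 genes or 0.203% were higher by the size rule and 10 or 0.092% were lower, and with median scaling the split was 16 and 21. MSX2 was detected on neither array, with normalized log2 values 0.07 apart. The same cells showed other BMP responses of larger size. ID1, an inhibitor of differentiation and direct SMAD target, was 7.62-fold higher with BMP4 than in untreated cells, and HAND1, a factor of lateral mesoderm and of trophoblast, was higher by at least 6.54-fold.

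CHIR99021 alone gave MSX1 a larger difference than BMP4 did. MSX1 was 6.25-fold higher with CHIR99021 than in untreated cells, a log2 difference of 2.64 that ranked 4 of 10747 genes. By the size rule 36 genes or 0.335% were higher and 63 or 0.586% were lower, a split of 16 and 18 with an offset of 50. MSX2 was detected on neither array, with normalized log2 values 0.05 apart.

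The 2 remaining comparisons measured each treatment in the presence of the other. MSX1 was 4.65-fold higher with both treatments than with CHIR99021 alone, a log2 difference of 2.22 that ranked 6 of 10573 genes. In that comparison 35 genes or 0.331% were higher and 9 or 0.0851% were lower, and 26 and 17 with median scaling. The split was 16 and 1 with an offset of 50 and 13 and 0 without background correction. MSX1 was 16.9-fold higher with both treatments than with BMP4 alone, a log2 difference of 4.08 that ranked 2 of 10732 genes. There, 37 genes or 0.345% were higher and 50 or 0.466% were lower, a split of 19 and 10 with an offset of 50 and of 12 and 7 without background correction. MSX2 was at least 1.19-fold higher with both treatments than with CHIR99021 alone and at least 1.25-fold higher than with BMP4 alone, with log2 differences of 0.92 and 0.90 that did not pass the size rule.

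The BMP4 difference of MSX1 was therefore 4.65-fold with CHIR99021 present and 1.72-fold without it. These 2 values share no array. ID2, another inhibitor of differentiation, was 4.89-fold higher with both treatments than with CHIR99021 alone and 3.01-fold higher with BMP4 than in untreated cells. Its log2 intensity in untreated cells, 5.05, was close to the lowest detected value of that array, 4.93. ID3, of the same family, had the reverse order, 3.43-fold with CHIR99021 present and 5.01-fold without it. ID1 had the order of MSX1, 15.4-fold with CHIR99021 present and 7.62-fold without it. With CHIR99021 alone ID1 was 2.00-fold lower than in untreated cells, where MSX1 was higher. TFAP2A, an AP-2 factor of surface ectoderm and the neural plate border, was detected on neither the CHIR99021 nor the untreated array, so only bounds hold, at least 4.50-fold with CHIR99021 present and at least 1.75-fold without it, and they give no order. MSX2 had 0.92 and 0.07, the second of these between undetected values.

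**Figure D2:**
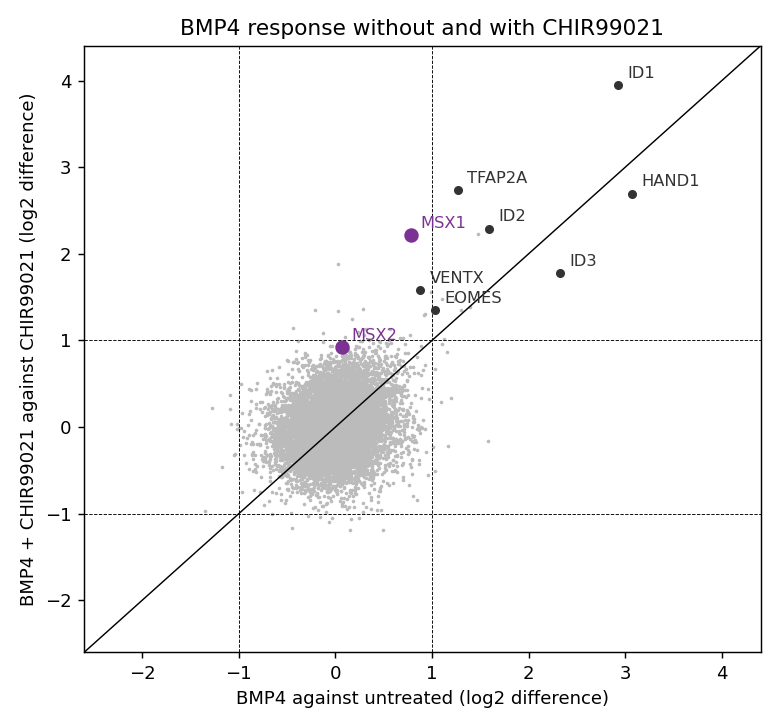
Log2 difference of BMP4 plus CHIR99021 against CHIR99021 alone (vertical) over that of BMP4 against untreated cells (horizontal), 1 point per gene detected on at least 1 array. The diagonal marks equal differences and dashed lines mark the size rule. MSX1 lies at 2.22 and 0.79 and MSX2 at 0.92 and 0.07, both above the diagonal. TFAP2A and HAND1 were undetected on the CHIR99021 and untreated arrays, and MSX2 on all but the combined one, so these points rest on values not above background.

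The joint value was then set against what the single treatments would give together. On the linear scale, joint treatment added 1573 units of normalized intensity to MSX1 over untreated cells, CHIR99021 alone added 294 and BMP4 alone 40.6. The joint increase was 4.70 times the sum of the single increases, 335. On the log2 scale, where single folds multiply, the folds of 1.72 and 6.25 have a product of 10.8, and the joint fold of 29.1 was 2.70 times that. The log2 intensity that additive log2 differences would give is 9.24, against the measured 10.67.

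This departure from additivity, the log2 value with both treatments minus that with BMP4 minus that with CHIR99021 plus that of untreated cells, was 1.43 for MSX1. Over the 11282 genes detected on at least 1 array it ranked 8, and 78 genes or 0.691% had a departure of at least 1, while 71 or 0.629% had one of -1 or below. These counts were 11 and 2 with an offset of 50, and 6 and 1 without background correction. Over the 9303 genes detected on all 4 arrays MSX1 ranked 3, and 26 or 0.279% reached 1. Among the 1750 of these with a mean log2 intensity within 0.5 of that of MSX1, 7.88, no gene exceeded it. Their departures had a median of 0.01, a central range, holding 95% of them, of -0.61 to 0.64 and a next highest value of 1.22. These genes match MSX1 in mean only, as its log2 values ran from 5.81 in untreated cells to 10.67 with both treatments. Its BMP4 and untreated values were close to the limit of detection, so the range may be narrower than that of genes equally dim there.

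The genes next to MSX1 in this order reached their place by another route. KAT5, a histone acetyltransferase, was next above with 1.46, and MAP2K2, a kinase of the MAPK cascade, next below with 1.37. KAT5 had log2 differences from untreated cells of -0.63 with both treatments, -1.10 with BMP4 and -0.99 with CHIR99021, and MAP2K2 had -0.19, -0.39 and -1.18. HES1, a repressor downstream of Notch that was picked out after its values were seen, had the highest departure of the genes detected on all 4 arrays, 1.57, with differences of 0.02, -0.21 and -1.33. In these 3 genes the departure came with single-treatment arrays below the untreated one, whereas all 3 MSX1 differences from untreated cells were positive. A departure of at least 1 with a joint rise was not particular to MSX1. TFAP2A had one of 1.46 and was higher with both treatments, though undetected with CHIR99021 and in untreated cells.

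MSX2 had a departure of 0.85, short of the size rule and the 157th highest of 11282. Among the 1533 genes with a mean log2 intensity within 0.5 of that of MSX2, 4.57, it was the 69th highest, and the central range holding 95% of these genes was -0.97 to 0.99. Since MSX2 was detected on 1 array only, a linear ratio of increases was not computed for it.

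**Figure D3:**
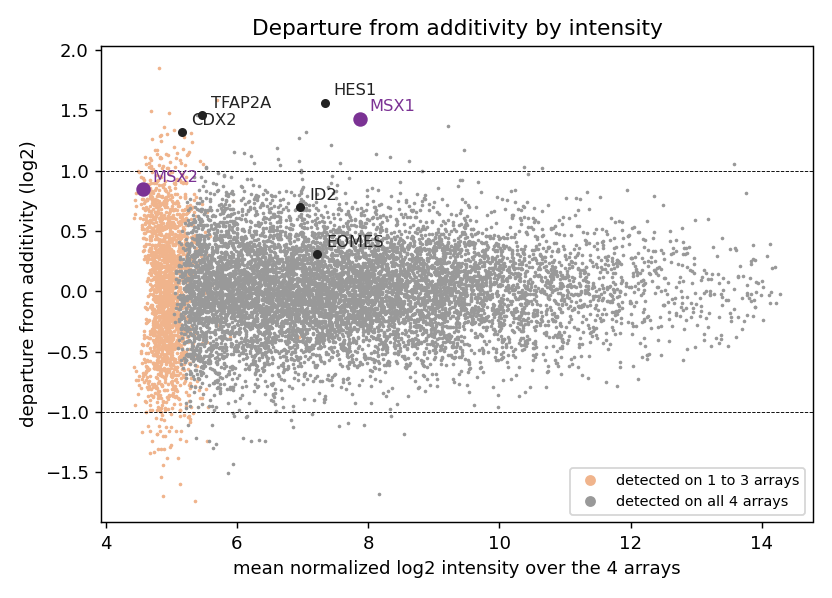
Departure from additivity (log2) over the mean normalized log2 intensity of the 4 arrays, 1 point per gene, grey where detected on all 4 arrays and orange where detected on 1 to 3. Dashed lines mark departures of 1 and -1. MSX1 at 1.43 lies outside the cloud of genes of like mean intensity, and MSX2 at 0.85 lies inside a wider cloud of dim genes.

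The pair was also ordered by how far the combined array stood above all other arrays. Of 11282 genes, 9 or 0.0798% stood at least 1 log2 unit higher on the combined array than on any other array, and none was lower than each of them by as much. ID2 led with a margin of 2.29 over its next array, followed by MSX1 with 2.22. EBF3, a helix-loop-helix factor of the EBF family, had a margin of 1.71, and TFAP2A one of 1.45. EOMES, a primitive streak factor of the T-box family, and CDX2, a caudal-type homeobox factor of posterior tissues, both had 1.35. PLEKHF1, an endosomal protein, had 1.13, NOTUM, an extracellular enzyme that inactivates WNT ligands, had 1.12 and PITX1, a paired-type homeobox factor, had 1.06. PAPPA, a protease of insulin-like growth factor binding proteins, lay just outside, its margin of 0.999 against 1.06 for PITX1 just inside, and MSX2 was further out with 0.90. Only ID2, MSX1 and PLEKHF1 of the 9 were detected on all 4 arrays. EBF3, NOTUM and PITX1 were, like MSX2, detected on the combined array alone, and their log2 intensities there were 6.15, 5.89 and 5.95, so their margins are over values not above background. Departures from additivity of at least 1 were not particular to MSX1 among the 9. EBF3, TFAP2A, CDX2 and NOTUM had 1.85, 1.46, 1.32 and 1.07, though none of them was detected in untreated cells. The departures of PLEKHF1, PITX1, ID2 and EOMES were 0.82, 0.76, 0.70 and 0.31.

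**Figure D4:**
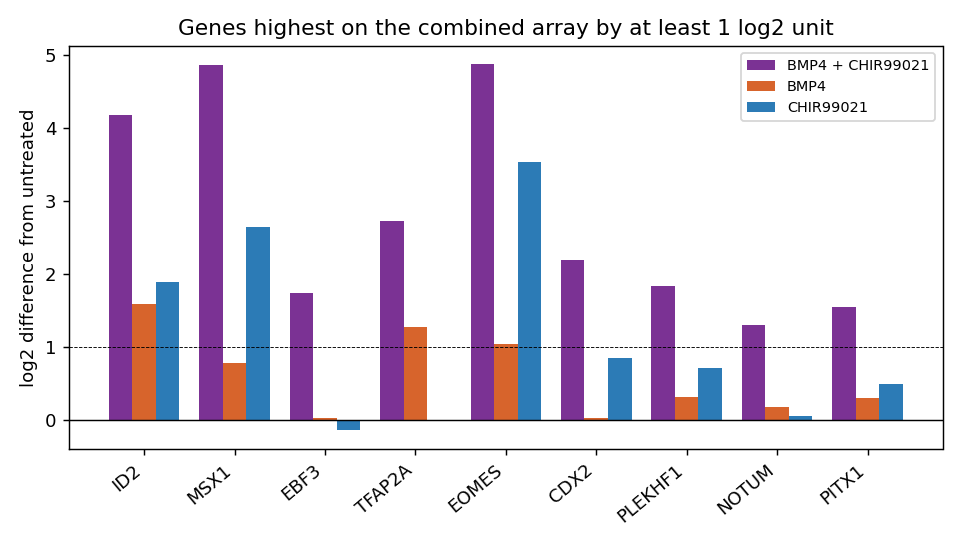
Log2 difference from untreated cells under both treatments, BMP4 alone and CHIR99021 alone for the 9 genes at least 1 log2 unit higher on the combined array than on each other array, ordered by that margin. The dashed line marks a difference of 1. Only ID2, MSX1 and PLEKHF1 were detected in untreated cells, so bars of the other 6 rest on a value not above background. ID2 was close to the limit of detection there. ID2, MSX1 and EOMES had the highest joint bars, and of these MSX1 had the lowest BMP4 bar, 0.79.

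By the 3 differences from untreated cells, the genes most like MSX1 among 11281 were EOMES, ID2, NKD1, AXIN2 and MIXL1, at a root mean square distance of 0.53, 0.75, 1.06, 1.60 and 1.65 log2 units. EOMES had log2 differences of 4.87 with both treatments, 1.03 with BMP4 and 3.53 with CHIR99021, against 4.86, 0.79 and 2.64 for MSX1. EOMES, NKD1 and MIXL1 were not detected in untreated cells, and NKD1 and MIXL1 not with BMP4 either, so their differences from those arrays are against values not above background. ID2 had 4.18, 1.59 and 1.89, so it shared the size of the joint difference and had the single treatments nearer to each other. NKD1 and AXIN2, feedback inhibitors of WNT signaling, had joint differences of 3.17 and 2.30 with CHIR99021 differences of 2.70 and 2.40, and BMP4 added 0.47 and -0.10 on top of CHIR99021. MIXL1, a homeobox factor of the primitive streak, had 2.27, 0.27 and 1.54.

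The genes nearest to MSX2 were BMP7, PMEPA1, SV2B, HOXD3 and HPYR1, all within 0.10 log2 units. BMP7, a BMP ligand, had log2 intensities of 7.24 with both treatments, 6.33 with BMP4, 6.36 with CHIR99021 and 6.23 in untreated cells, and was detected on all 4 arrays. PMEPA1, a feedback inhibitor of SMAD signaling by the TGF-beta branch, had 9.54, 8.77, 8.71 and 8.66, also detected throughout. BMP7 and PMEPA1 had log2 differences of 1.01 and 0.88 with both treatments against untreated cells. They were chosen for differences close to those of MSX2, so this likeness is no check on the MSX2 values near the limit of detection. SV2B, HOXD3 and HPYR1 were detected on 1 array each.

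Of the homeobox relatives of the pair, few were measured. The list of NK-like homeobox genes, which holds MSX1 and MSX2 and the DLX, NKX, EMX, BARX, VENTX and NANOG relatives, had 46 of 48 genes on the array and 11 detected on at least 1 array. Against untreated cells, where 0.628% of all genes were higher with both treatments, 0.335% with CHIR99021 and 0.203% with BMP4, MSX1 and VENTX were higher with both treatments (2 of 10 tested, none lower), MSX1 alone with CHIR99021 (1 of 6) and none with BMP4 (0 of 10). The list's median log2 difference with both treatments was 0.41, and 0.33 without the pair, against -0.01 over all genes tested. MSX1 was itself chosen by these arrays, and among the 8 members tested without the pair VENTX was the call left. VENTX, a homeobox factor that follows BMP signaling in Xenopus, had log2 intensities of 7.79 with both treatments, 6.94 with BMP4, 6.21 with CHIR99021 and 6.06 in untreated cells. VENTX was 2.99-fold higher with both treatments than with CHIR99021 alone and 1.84-fold higher with BMP4 than in untreated cells. Unlike MSX1 it hardly differed with CHIR99021, 1.11-fold. Of the DLX genes, close relatives of the MSX genes, DLX1 was detected with BMP4 only, DLX2 in untreated cells only and DLX5 with both treatments and with BMP4, so none had a joint difference from untreated cells between 2 detected values.

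MSX1 and MSX2 are on the list of BMP-SMAD target genes, of which 23 of 24 were on the array. With both treatments against untreated cells 9 of 16 tested were higher and none lower, with BMP4 alone 7 of 12, and with CHIR99021 alone 2 of 11, beside 0.628%, 0.203% and 0.335% of all genes higher in these comparisons. The 7 higher with BMP4 alone were ID1, ID2, ID3, SMAD6, BAMBI, HAND1 and TFAP2A, without MSX1. The 2 higher with CHIR99021 alone were MSX1 and ID2. MSX1, which was chosen by these arrays, is in the counts for both treatments and for CHIR99021. The list's medians were 1.30 with both treatments, 1.26 with BMP4 and -0.26 with CHIR99021. Of the list, 16 genes were detected with both treatments, 12 with BMP4 and 9 in untreated cells. Some members thus entered these counts and medians only through a treated array, which favours high values. SMAD6 and BAMBI, which dampen the pathway, were 2.78-fold and 2.37-fold higher with BMP4 than in untreated cells, and 1.08-fold higher and 1.17-fold lower with both treatments than with BMP4 alone. In that last comparison 4 of 16 members were higher, namely MSX1, ID2, TFAP2A and CDX2, beside 0.345% of all genes. MSX1 in this count was chosen by these arrays, and CDX2 was not detected with BMP4, so it was tested only through the combined array.

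MSX1 and MSX2 are also on the list of WNT and beta-catenin target genes, of which 23 of 24 were on the array. Here 9 of 18 tested were higher with both treatments than in untreated cells, 7 of 16 with CHIR99021 and 0 of 9 with BMP4, and none was lower. Over all genes the shares higher were 0.628%, 0.335% and 0.203%, so a count of 0 of 9 with BMP4 does not set the list apart. The counts for both treatments and for CHIR99021 include MSX1, which was chosen by these arrays. Of the list, 18 genes were detected with both treatments, 16 with CHIR99021 and 9 in untreated cells. Some members were thus tested only through a treated array. SP5, a zinc finger factor and direct beta-catenin target, was at least 22.8-fold higher with both treatments and at least 29.1-fold higher with CHIR99021 than in untreated cells. AXIN2 was 4.92-fold and 5.28-fold higher. LEF1, itself a factor through which beta-catenin acts, was at least 2.75-fold and at least 1.97-fold higher. When both treatments were compared with CHIR99021 alone, 3 of 19 members were higher, beside 0.331% of all genes. These were MSX1, chosen by these arrays, CDX2, and NOTUM, which was detected on the combined array only. The list's median in this comparison was 0.29, or 0.15 among the 17 tested without the MSX pair. SP5, AXIN2 and CDX1 had log2 differences of -0.35, -0.10 and 0.07 there.

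With 0.628% of all genes higher and 0.656% lower with both treatments against untreated cells, short lists are expected to hold few or no calls, and the counts of the pathways' machinery are read against that. No receptor or SMAD of the BMP signal transduction list passed the size rule in any of the comparisons (0 of 6 tested with both treatments against untreated cells). BMPR2, the type II receptor, had a log2 difference of 0.68 there, and SMAD5 and SMAD4 had 0.20 and -0.33. Of the canonical WNT signal transduction list LEF1 was the 1 gene of 10 tested that passed, and CTNNB1, which encodes beta-catenin, had 0.03. Of the proteins known from mouse studies to bind MSX proteins 6 were tested and none passed, TBP, the TATA-binding protein, having 0.30, and EZH2, a histone methyltransferase, 0.42. The BMP4 transcript itself, read by its own probe, was not detected on any array.

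Genes of the places where MSX genes act in the embryo were divided. Of the neural plate border and neural crest list 2 of 13 tested were higher with both treatments than in untreated cells (0.628% of all genes), MSX1 and TFAP2A, with a list median of 0.42, or 0.14 without the MSX pair. As MSX1 was chosen by these arrays, TFAP2A was the call left among the 11 tested without the pair. FOXD3, a forkhead factor of pluripotent cells and neural crest, was at least 1.84-fold lower with CHIR99021 than in untreated cells, and PAX3 and PAX7 were not detected. Of the primitive streak and posterior or lateral mesoderm list 7 of 11 tested were higher with both treatments (MIXL1, EOMES, CDX1, CDX2, HAND1, WNT3 and NODAL), 2 of 8 with BMP4 (0.203% of all genes) and 4 of 10 with CHIR99021 (0.335%). Its median with both treatments was 2.04. Of the list, 11 genes were detected with both treatments and 5 in untreated cells. Some members thus entered the count and the median only through the combined array, which favours high values. NODAL, a ligand of the Activin branch, was 4.47-fold higher with both treatments and 4.48-fold higher with CHIR99021 alone, and its log2 intensity was 9.27 on both of those arrays.

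By summed intensity, none of the marker lists of other cell types had the order of MSX1 over the arrays. Of 9 trophoblast or amnion markers on the array 5 were detected with both treatments, 3 with BMP4, 1 with CHIR99021 and 1 in untreated cells, at summed linear intensities of 484, 440, 237 and 245. TFAP2A and HAND1 passed the size rule with both treatments against untreated cells, while CGA, KRT7, ISL1 and VTCN1 were not detected on any array. Of 8 neural markers NES and TUBB3 were detected on each array and PAX6, SOX1 and SOX10 on none, with sums of 5998, 7593, 5587 and 6317 in the same order of arrays. Of 8 mesenchyme or fibroblast markers 4 or 5 were detected on each array, DCN, LUM and POSTN on none, with sums of 2493, 2952, 2809 and 3453, lowest with both treatments and highest in untreated cells. Their part in the MSX1 values was not tested, and more cells with MSX1 RNA cannot be told apart from more MSX1 RNA per cell in these bulk samples.

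Few neighbours of the pair on their chromosomes were measured. Of the 3 nearest protein-coding genes on each side of MSX1 in RefSeq, 5 were on the array, CYTL1 and EVC2 were detected on no array, which bars a call, and STX18 was detected on 1. NSG1 and STK32B, detected on all 4 arrays, stayed within the size rule in each comparison and had log2 differences of -0.06 and 0.29 with both treatments against untreated cells. All 6 such neighbours of MSX2 were on the array, of which NSG2, CPEB4, DRD1 and HRH2 were detected on none and C5orf47 on 3 arrays. SFXN1, detected on all 4, stayed within the size rule in each comparison, with -0.17 for both treatments against untreated cells.

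The direction and order of the MSX1 folds were the same under 6 ways of processing the arrays. The joint fold over untreated cells ran from 13.5 to 39.7 and the CHIR99021 fold from 3.34 to 8.29. The BMP4 fold ran from 1.32 to 1.999, just short of the 2-fold size rule. The lowest values came without background correction and the highest from the authors' table with values below 5 set to 5. The fold of both treatments over CHIR99021 alone, between 2 well measured values, ran only from 4.05 to 4.79. The joint fold was 2.40 to 3.06 times the product of the single folds. In the table normalized by the authors, the linear intensity of MSX1 was 1608 with both treatments, 80.9 with BMP4, 335 with CHIR99021 and 40.5 in untreated cells, and that of MSX2 was 22.4, 1.24, 0.699 and 0.

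**Figure D5:**
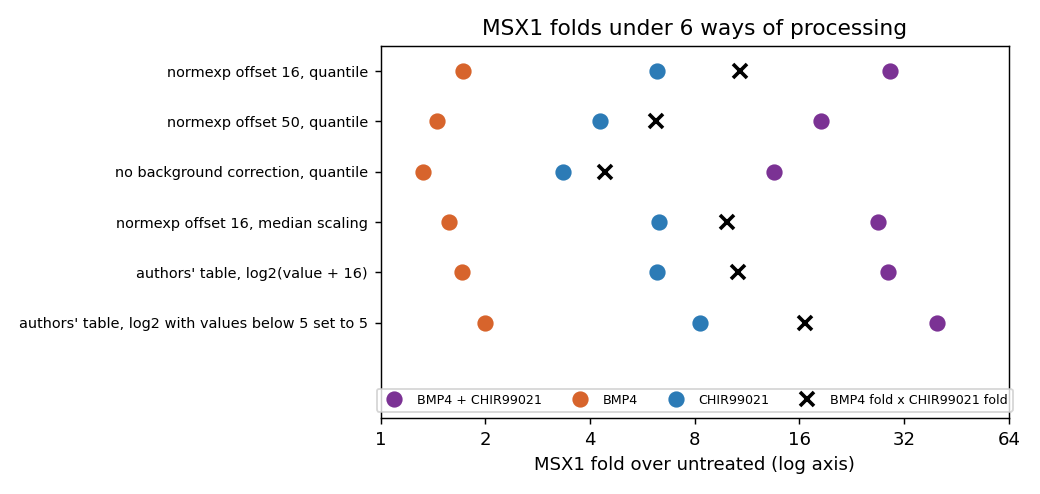
MSX1 fold over untreated cells (log axis) under both treatments, BMP4 alone and CHIR99021 alone, with crosses at the product of the BMP4 and CHIR99021 folds, for 6 ways of processing the arrays. The joint fold of 13.5 to 39.7 lay to the right of the cross in each row.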

How the data were processed

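The 4 arrays, 1 per group as given by the labels, were analysed from the raw table. In it the authors deposited a linear probe intensity, not normalized, and a detection p-value made with GenomeStudio in steps of 1 in 770. The software's version and the handling of negative values are not given in the sources used. A further intensity table deposited by the authors had been background-subtracted and spline-normalized, and about 26.7% of its values per array are 0.

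Raw intensities were background-corrected with normexp (limma 3.58.1, R 4.3.3, background inferred from the detection p-values, offset 16), then quantile-normalized and log2-transformed. Differences between dim values are shrunk by this offset, and precision is limited by the number of arrays. Gene names came through the platform annotation with symbols updated through RefSeq of GRCh38.p14 (30073 of 30120 listed probes matched by Entrez ID), and 17201 probes were not listed. The probe with the highest mean stood for a gene. Differences between a detected and an undetected value are given as a fold of at least the brighter value over the higher of the probe's own and the lowest detected value of the dimmer array. Calls, margins and departures were computed with pandas 2.3.3. Calls and departures, but not margins, were tried on simulated data in which every probe counted as detected.

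The members and the gene lists were chosen with earlier results of these data known. Named were MSX1 and MSX2, the 5 genes nearest to each by differences from untreated cells, genes at least 1 log2 unit higher on the combined array than on each other array, the neighbours of MSX1 in departure, list members passing the size rule and up to 3 that did not. A few further list members, and HES1, were named after their values were seen. Correlations with MSX1 over the arrays were not reported, as 4 arrays are too few. Alternatives were an offset of 50, no background correction, median scaling, the authors' table with 16 added or with values below 5 set to 5, a detection p of 0.05 and a size rule of 1.5-fold.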

Additional observations from a re-analysis of the deposited data

How the results depend on the processing

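No paired analysis was possible because each group holds 1 array, so no array was left out either. The alternative of another probe was not run, since each of the genes has 1 probe, and no linear ratio was computed for MSX2, which was undetected on the single-treatment arrays. With no replicates, a log2 difference was taken as moved when it changed by over 0.5.

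Under the other backgrounds, scaling and tables MSX1 kept its direction and its side of the size rule in each comparison, its departure running from 1.26 to 1.61. For BMP4 against untreated cells it did so only just, with 0.999 from the authors' table with values below 5 set to 5. At a size rule of 1.5-fold, applied to the pair after seeing the data, its BMP4 difference of 0.79 passed, as did those of MSX2 for both treatments, 0.98 against untreated cells, 0.92 against CHIR99021 and 0.90 against BMP4, and its departure of 0.85. The rank of MSX1 in departure among genes detected on all 4 arrays ran from 1 to 31, lowest with the authors' table set to 5 below 5. With an offset of 50, the log2 difference of MSX1 was 4.21 for both treatments and 2.09 for CHIR99021 against untreated cells. Without background correction these were 3.76 and 1.74, and that of both treatments against BMP4 was 3.35. The call on MSX2 depended on how dim values were treated. With an offset of 50 its difference was 0.44 for both treatments against untreated cells and 0.42 against CHIR99021. Without background correction it was 0.37 against untreated cells, 0.33 against CHIR99021 and 0.32 against BMP4, with a departure of 0.28. From the authors' table with 16 added, MSX2 passed the size rule at 1.26, 1.20 and 1.16 in the same comparisons, with a departure of 1.09, and with values below 5 set to 5 each of these was 2.16. The last setting places all 3 undetected values of MSX2 at 5.

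Counts of genes past the size rule follow in the order both treatments, BMP4 and CHIR99021 against untreated cells, both against CHIR99021, both against BMP4, and departure. They were 139, 32, 99, 44, 87 and 149, of which an offset of 50 left 62, 8, 34, 17, 29 and 13 calls, and no background correction 40, 7, 21, 13, 19 and 7. The authors' table with 16 added gave 72 for BMP4, 86 for both against CHIR99021 and 248 for departure. With values below 5 set to 5 the counts were 830, 618, 724, 583, 689 and 1159, and at 1.5-fold 1097, 524, 963, 805, 750 and 1384. With median scaling the median over all genes tested was -0.11 for both treatments and -0.12 for BMP4 against untreated cells, and -0.11 for both against CHIR99021. With quantile normalization at an offset of 16 these medians were -0.0125, -0.0024 and -0.0014. The number of genes highest on the combined array by at least 1 ran from 3 to 70, with MSX1 among them in each setting and MSX2 only with the authors' table.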
